A study of Mus musculus with 93 samples.

Results

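The genes described here encode the nuclear subunits of mitochondrial oxidative phosphorylation. They were taken by symbol: every gene of the deposited table whose symbol begins with Ndufa, Ndufb, Ndufc, Ndufs, Ndufv, Uqcr, Cox4 to Cox8 or Atp5, together with Sdha, Sdhb, Sdhc, Sdhd and Cyc1, leaving out the assembly factors named Ndufaf and the symbols ending in -ps. This gave 81 of the 14181 genes: 38 of complex I, 4 of complex II, 9 of complex III, 13 of complex IV (with Ndufa4, which belongs to that complex despite its name) and 17 of complex V. The rule used symbols and no measured value, although the group was picked with earlier results of these data known. Of the 81 genes, 79 are annotated as protein-coding, and Ndufa11b and Ndufb4c are processed pseudogenes, so their levels and those of Ndufa11 and Ndufb4 cannot be separated with certainty.

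Oxidative phosphorylation takes electrons from NADH (complex I) and succinate (complex II) through complex III and cytochrome c to complex IV, which passes them to oxygen. Complexes I, III and IV pump protons across the inner mitochondrial membrane, and complex V, the ATP synthase, uses the proton gradient to make ATP. Most subunits are encoded in the nucleus, a few core ones in mitochondrial DNA, and some subunits of complex IV exist in forms with different tissue distributions. In macrophages the balance of this pathway with glycolysis is known to shift with activation state.

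The study followed mouse cells from progenitors to tissue macrophages in 93 bulk SMART-Seq2 libraries of polyA RNA, in 46 groups defined by cell type, tissue and age. EMP (erythro-myeloid progenitors, 6 libraries) came from yolk sac at E9 and E10.25 and from liver at E10.25, with 2 libraries each. pMac (precursors of macrophages, 13 libraries) came at E9.5 from brain (4), tissue labelled caudal (3) and yolk sac (2), and 1 library each at E10.25 from limbs, brain, yolk sac and liver. Mac (macrophages, 74 libraries) came at E10.25 and E10.5 from brain (5), limbs (4), liver (4) and yolk sac (7), here called early Mac, and at E12.5 from brain, limbs and liver (2 each). At E14.5, E18.5, P2, P8 and P21 they came from brain (10), kidney (10), liver (9), lung (8) and skin (11), here called late Mac. The labels name no strain, genotype or treatment, and all groups are untreated as far as they say. Replicates are described as technical and biological without saying which, so p-values reflect only how far these libraries spread, and that spread may be technical.

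The macrophage markers (10 genes, among them Csf1r and C1qa) had a mean log2 level of 6.80 to 7.91 in EMP, 9.86 to 11.43 in pMac and 8.15 to 14.91 in Mac. Transcripts above the detection floor numbered 14438 to 25195 per library (median 22662), and 9 late Mac libraries had fewer than 18000: 2 from kidney, 4 from liver and 3 from lung. The file holds no counts, so read depth is unknown. By shared offsets of their lowest values 33 libraries form a set (smaller), and the remaining 60 are here called the larger set. The correlation was 0.74 within the smaller set, 0.04 within the larger set and -0.20 between them. The larger set is thus a remainder without a shared offset. All 13 pMac libraries, 1 of 6 EMP and 9 of 20 early Mac libraries are in the smaller set. A gene's level below is log2 of its summed transcripts with a common floor of 5.37, and a gene at 5.37 was not detected. Levels are compared between libraries and not between genes, since no source used here tells whether length was corrected for.

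The pathway was present everywhere. Of the 81 genes, 64 lay above the floor in all 93 libraries, 13 were at the floor in 1 to 3 libraries, and 4 more often: Cox4i2 in 48, Ndufa11b in 26, Atp5s in 16 and Atp5k in 14. The standard deviation of a member over the 93 libraries had a median of 0.95 and ranged from 0.56 to 1.61. For comparison it was 1.38 in the median of the 2552 genes with mean levels between 9.26 and 10.6, the quartiles of the members. Among the 64 genes always above the floor the steadiest were Ndufb4c (SD 0.62), the ATP synthase stalk subunit Atp5h (0.64) and the complex III hinge protein Uqcrh (0.67). Uqcrc2, a core protein of complex III, varied with an SD of 1.38, and the most variable were Sdhd (1.52), a membrane anchor of complex II, and Ndufa9 (1.53), a complex I subunit near the ubiquinone site.

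The mean log2 level of the 81 genes was 9.93 ± 0.45 (SD, n = 6) in EMP, 10.34 ± 0.40 (n = 13) in pMac, 10.02 ± 0.71 (n = 20) in early Mac, 9.57 ± 0.43 (n = 6) in Mac of E12.5 and 9.69 ± 0.54 (n = 48) in late Mac. The ranges overlapped throughout: 9.38 to 10.53 in EMP, 9.91 to 11.28 in pMac, 8.80 to 11.75 in early Mac and 8.47 to 11.01 in late Mac. Within EMP the group means were 9.48 in yolk sac of E9, 10.21 in yolk sac of E10.25 and 10.12 in liver of E10.25. The pMac group means were 10.27 to 10.42 at E9.5, and the single pMac libraries of E10.25 were at 10.08 to 10.70. Age was not in the fit of EMP, pMac and early Mac, and its part was not tested. Among late Mac the mean was 9.45 ± 0.46 in brain (n = 10), 9.5 ± 0.65 in kidney (n = 10), 9.73 ± 0.51 in skin (n = 11), 9.74 ± 0.53 in lung (n = 8) and 10.10 ± 0.32 in liver (n = 9). Neighbours in that order differed by less than the SD of either, except lung and liver, whose difference exceeded the SD of liver and not that of lung. The highest library, yolk sac Mac of E10.5 replicate 3 at 11.75, also had a high median over the 2196 genes detected in every library, 12.35.

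**Figure D1:**
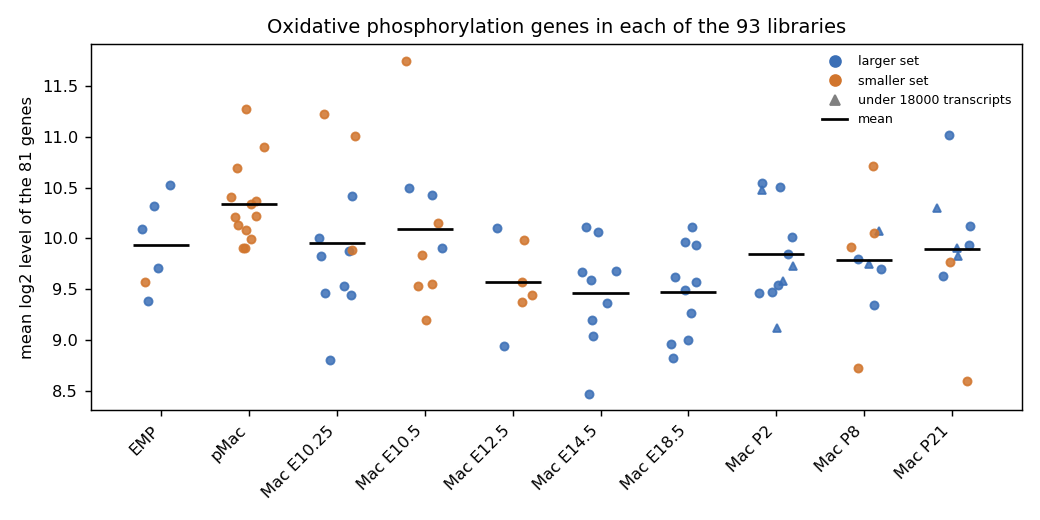
Mean log2 level of the 81 oxidative phosphorylation genes (vertical axis) in each of the 93 libraries (points), by cell type and, for Mac, age (horizontal axis); colours mark the larger and smaller sets of libraries, triangles the 9 libraries with fewer than 18000 transcripts above the floor, and bars the group means. The pMac libraries lie between 9.91 and 11.28, and their range overlaps those of EMP and early Mac.

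From EMP to pMac, 5 of 81 genes rose and none fell, all of them small accessory subunits. Across all 11606 genes tested, 5.57% were called in either direction, 3.67% as higher and 1.9% as lower, so the members' share, 5 of 81, was close to the background (limma with Benjamini-Hochberg adjustment over all genes, tissue group as a covariate; called at an adjusted p under 0.05). The fitted difference was above 0 for 71 of 81 members, with a median log2 difference of 0.60 against 0.13 over all genes, and 27 members had an unadjusted p under 0.05. In bulk libraries a change in the RNA of each cell and a change in the share of cells cannot be told apart.

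Cox7c, a small subunit of complex IV, had log2 levels of 9.23 and 9.71 in liver EMP, 8.75 and 8.19 in yolk sac EMP of E10.25 and 8.77 and 8.61 in yolk sac EMP of E9. In pMac its lowest, median and highest levels were 9.75, 10.33 and 11.83. No EMP library reached the lowest pMac library, and the fitted log2 difference was 1.63 ± 0.40 (SE; adjusted p = 0.0064). Uqcrb, a subunit of complex III, likewise showed no overlap: 8.85, 9.17 and 9.73 (lowest, median, highest) in EMP and 9.97, 10.27 and 11.15 in pMac, a difference of 1.36 ± 0.38 (adjusted p = 0.0207). The call for Uqcrb was lost when either yolk sac EMP of E10.25 replicate 2 or yolk sac EMP of E9 replicate 1 was left out. Ndufc1, an accessory subunit of complex I, spanned 7.44 to 8.76 in EMP and 8.22 to 10.83 in pMac and rose by 1.51 ± 0.48 (adjusted p = 0.0476).

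The remaining pair were chosen by their call although their mean levels lie below the limit of 7.37 set for naming genes. Atp5k, the e subunit of the ATP synthase, was at 5.37 to 5.79 in EMP and 6.38 to 7.94 in pMac, with no overlap (difference 1.54 ± 0.41, adjusted p = 0.0137). Ndufa3, a complex I accessory subunit, was at 5.65 to 6.96 in EMP and 7.11 to 8.60 in pMac, again without overlap (1.35 ± 0.43, adjusted p = 0.0487). Leaving out 1 library ended the call of Ndufc1 in 25 of 35 cases and that of Ndufa3 in 26. By complex the median log2 difference was 0.62 for complex I, -0.10 for complex II, 0.40 for complex III, 0.61 for complex IV and 0.50 for complex V. None of the 13 genes encoded in mitochondrial DNA was called, and all 13 had a difference above 0 (median 0.75).

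Only 1 EMP library shares the smaller set with the pMac libraries, so cell type and set can hardly be told apart in this comparison. With the set as a covariate, or within the smaller set, 0 of 81 members were called. Shifting each library to 1 common median moved the median of all genes from 0.13 to -0.32 and that of the members from 0.60 to 0.12; 2 members were then called higher and 1 lower. In 23 of 35 fits that each left out 1 library the count of 5 moved by over 1.5 times, to 2 or 3 in 22 of them and to 11 without brain Mac of E10.25 replicate 3. Along with these genes all 10 macrophage markers rose (mean levels given above), 5 of 7 progenitor markers fell (mean 8.87 to 10.91 in EMP, 6.69 to 8.16 in pMac) and 3 of 5 tested endothelial markers fell (7.5 to 8.37 and 5.37 to 6.85), and their part in the result was not tested.

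From pMac to early Mac, 11 of 81 genes fell and 1 rose, out of 11606 tested genes of which 9.93% fell, 9.88% rose and 19.8% were called in all. The members' share of falling genes was thus near the background and that of rising genes below it. The difference was below 0 for 69 of 81 members, with a median of -0.37 against -0.06 over all genes. The falls were 3 of 9 genes in complex III, 4 of 13 in complex IV, 2 of 17 in complex V and 2 of 38 in complex I, where 1 gene also rose, and none of 4 in complex II. Most pMac libraries come from a younger embryonic stage than any early Mac library, so cell type and age are largely mixed here. The fit held no term for age, and the part of age in these differences was not tested. This comparison shares the 13 pMac libraries with the one before it, so the genes called in both, Cox7c, Uqcrb and Atp5k, were high in the same libraries.

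The largest fall was that of Cox4i2, the alternative form of the complex IV subunit that is otherwise supplied by Cox4i1. Cox4i2 lies on chromosome 2 (152754173 to 152765037, plus strand, mm10) and Cox4i1 on chromosome 8 (120668222 to 120674207, plus strand). The lowest, median and highest log2 levels of Cox4i2 were 7.87, 9.06 and 10.02 in EMP, 8.59, 9.01 and 10.31 in pMac and 5.37, 6.59 and 8.99 in early Mac. In early Mac, 6 of 20 libraries were at the floor, and the highest were 2 yolk sac libraries of E10.5 (8.45 and 8.99). The log2 difference from pMac was -2.51 ± 0.36 (adjusted p = 1.01e-06), while that between pMac and EMP was 0.30 ± 0.54 (adjusted p = 0.852).

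Within early Mac, Cox4i2 was at 5.37, 5.37, 7.19, 6.39 and 7.31 in brain, at 5.85, 7.28, 5.37 and 6.95 in limbs, at 5.37, 5.37, 6.08 and 6.51 in liver and at 6.66, 8.25, 7.18, 6.82, 8.45, 5.37 and 8.99 in yolk sac. All 13 pMac libraries exceeded every brain, limb and liver library, whereas 1 yolk sac library lay inside the pMac range. At later ages the gene was at or near the floor: 5.37 to 5.49 at E12.5, with 4 of 6 libraries at the floor, and 5.37 to 7.66 in late Mac, with 38 of 48 at the floor. Since the floor bounds these levels from below, the differences are understated.

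Cox4i1 was abundant at every stage, with log2 levels of 11.92 to 13.36 in EMP, 12.39 to 13.84 in pMac, 11.53 to 14.54 in early Mac and 10.31 to 14.33 in late Mac. Its difference between early Mac and pMac was -0.18 ± 0.25 (adjusted p = 0.657). The exons of Cox4i1 overlap those of Emc8 on the opposite strand, and no source used here tells whether the counting used strand. The fall of Cox4i2 was the only call in this comparison that held with the set of libraries as a covariate and within the smaller set, where it was -2.06 (adjusted p = 0.00536). Over all alternatives it ranged from -2.73 to -2.06, and over the left-out libraries from -2.59 to -2.41.

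**Figure D2:**
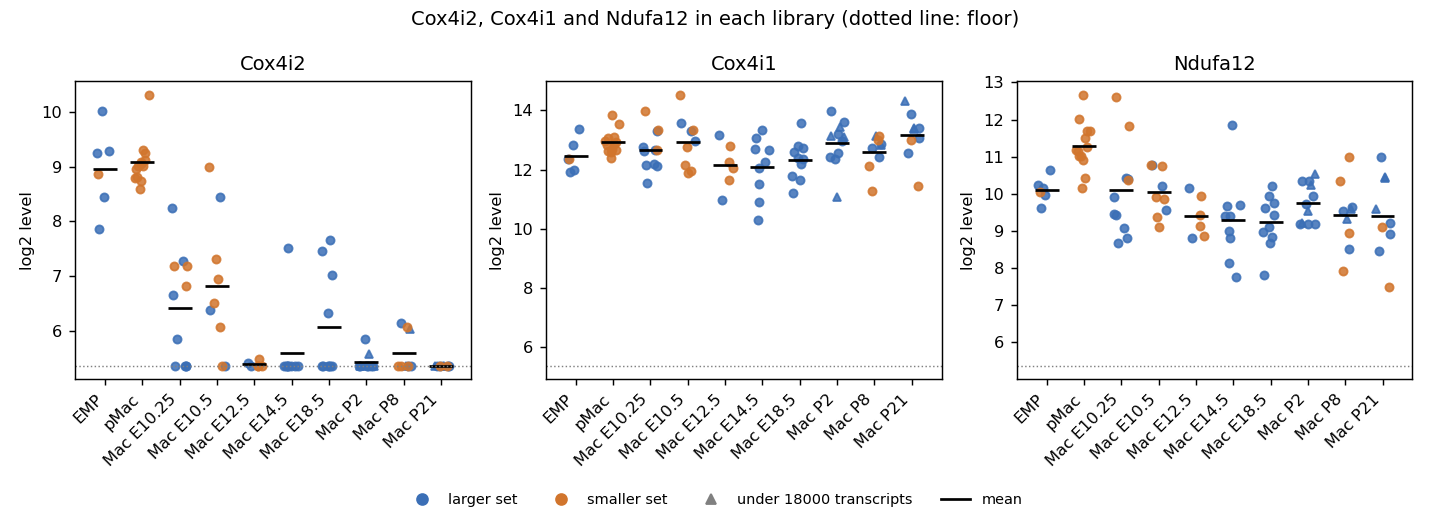
Log2 levels (vertical axes) of Cox4i2, Cox4i1 and Ndufa12 in each library (points) by cell type and, for Mac, age (horizontal axis); colours mark the sets of libraries, triangles the libraries with fewer than 18000 transcripts, bars the group means and the dotted line the floor of 5.37. Cox4i2 lies between 8.59 and 10.31 in pMac and is at the floor in 38 of 48 late Mac libraries, while the lowest level of Cox4i1 is 10.31.

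In complex I, Ndufa12 and Ndufa5 fell. Ndufa12, an accessory subunit, was at 9.61, 10.09 and 10.64 in EMP, 10.15, 11.19 and 12.67 in pMac and 8.68, 9.91 and 12.61 in early Mac (difference -1.28 ± 0.30, adjusted p = 0.0019). Ndufa5, a subunit of the peripheral arm, was at 8.81, 9.56 and 10.19 in pMac and 7.22, 8.32 and 10.17 in early Mac (-1.09 ± 0.29, adjusted p = 0.0057). For both genes the ranges overlapped. The single rise was that of Ndufb2, an accessory subunit of the membrane arm: 7.84 to 9.53 in EMP, 8.04, 8.81 and 10.76 in pMac and 8.62, 10.16 and 11.46 in early Mac (1.21 ± 0.31, adjusted p = 0.0047). Ndufb2 is an uncertain case, because its exons overlap the annotated gene Gm42420 on the same strand and Braf and Gm16272 on the other. The core subunits Ndufs1 and Ndufv1 and the accessory Ndufa9 had differences of -0.32, 0.58 and 0.39 and were not called.

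In complex III the falls were those of the small subunits Uqcr10 (-0.87, adjusted p = 0.0226), Uqcr11 (-0.77, 0.0291) and Uqcrb (-0.78, 0.0241). Cyc1, the cytochrome c1 subunit, had a difference of -0.85 ± 0.32 and an adjusted p of 0.0515. In complex IV, besides Cox4i2, the genes that fell were Ndufa4 (9.52, 10.07 and 11.39 in pMac, 7.67, 9.19 and 11.12 in early Mac, -0.92 ± 0.29, adjusted p = 0.0218), Cox7a2 (-0.84, 0.0291) and Cox7c (-0.76, 0.0355). In complex V they were Atp5g1, which encodes the proton-carrying c subunit (-0.82, 0.0218), and Atp5k (-0.83, 0.0255). The other genes of the c subunit, Atp5g2 and Atp5g3, had differences of 0.20 and -0.36 and were not called. All these values are limma log2 differences with Benjamini-Hochberg adjusted p-values.

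Without limb Mac of E10.25 replicate 1, 9 members were called, and without yolk sac Mac of E10.5 replicate 3, 18. With the set of libraries as a covariate 1 member was called, and within the smaller set 1, Cox4i2 in both. After quantile normalization 31 fell and 1 rose, and with libraries shifted to 1 median 33 fell and 1 rose. Erythroid markers rose in 10 of 12 cases (mean level 5.65 to 6.91 in pMac and 6.95 to 12.41 in early Mac), macrophage markers in 8 of 10, and all 3 tested neutrophil markers fell, and their part in the result was not tested.

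Counts for the wider mitochondrial lists between pMac and early Mac stand against all tested genes, of which 9.93% fell and 9.88% rose. Of the 13 genes in mitochondrial DNA, 1 fell, mt-Cytb of complex III (-1.05). With the set of libraries as a covariate 0 of the 13 fell, and within the smaller set 0. For the lists that follow, the part of the set was not tested. Of 46 assembly factors 5 fell and none rose (median -0.51), a share of falls near that of all genes. The largest falls were in Ndufaf4 (-1.61) and Timmdc1 (-1.58), which build complex I, and Cox11 (-1.27), which delivers copper to complex IV. Of 18 electron carriers and translocators 4 fell, led by Cycs, the cytochrome c gene (-1.78 ± 0.29), the ATP/ADP carrier Slc25a5 (-1.08) and the outer membrane channel Vdac2 (-0.98). Of 79 mitochondrial ribosomal protein genes 15 fell and none rose (median -0.53). Of 14 regulators of mitochondrial biogenesis, Tfam (-1.12) and Twnk (-1.04), both needed to copy mitochondrial DNA, fell and Polg, its polymerase, rose (1.77). In the citrate cycle list Dlst (0.90) and Idh3b (0.80) rose and Dlat (-1.20), Idh3a (-1.19) and Pdha1 (-1.18) fell, out of 17 genes. Of 18 tested glycolysis genes, the hexokinase Hk3 (4.89) and the lactate dehydrogenase subunit Ldhb (1.29) rose and the hexokinase Hk2 (-1.67) fell, with a median of -0.22 over the list.

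Promoter sequence was looked at for the genes that fell together. RefSeq (GRCm38.p6) holds start sites for 63 of the 81 members, and the 250 bases before each of their 68 starts were searched on both strands for 3 motifs known from respiratory genes, whose letters were chosen after sequences had been seen. The NRF1 motif GCGCNTGCG was found in 17 of 68 windows (25%) and in 5.19% of all 32851 windows. The ETS motif CCGGAAG was in 17.6% and 6.91%, and the YY1 motif AAGATGGC in 1.47% and 1.56%. Of the 9 members that fell in early Mac and have a window, 3 held the NRF1 motif (Ndufa12, Ndufa5 and Atp5k) and 1 the ETS motif (Uqcr11). A match describes letters only. For Ndufa12 and Ndufa5 the stretch shown lies before a RefSeq start but inside the gene as annotated by GENCODE. Those annotated genes span 94198720 to 94221443 on chromosome 10 and 24518666 to 24528013 on chromosome 6. Shown here, with the matched letters in capitals, are 30 bases around the match in 3 genes that fell, read 5′ to 3′ on the gene's own strand: Ndufa12 at chr10:94198905-94198934 (plus strand, match beginning 120 bases before the start), Ndufa5 at chr6:24527696-24527725 (minus strand, with the motif on the opposite strand) and Uqcr11 at chr10:80406869-80406898 (minus strand).
Ndufa12: ctccagctctGCGCCTGCGtagaacgacct
Ndufa5: gtgtgagctgCGCAGGCGCaaatctacctc
Uqcr11: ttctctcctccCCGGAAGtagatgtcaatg

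Between late Mac of 5 tissues (48 libraries, age as a covariate, each tissue against the mean of the other 4, 80 members tested since Cox4i2 did not pass the filter on low levels) liver had the most calls: 7 of 80 members were higher and none lower, where 5.1% of 11797 genes were higher and 9.04% were called in all. The members' share of calls in either direction in liver was thus near that of all genes, while their share of higher calls was above it. Liver also had the most calls over all genes (1066 of 11797). In liver 68 of 80 differences were above 0, with a median of 0.56 against -0.10 over all genes. The other tissues had 2 calls (brain), and 1 each (kidney, lung, skin), all of them lower. In brain, kidney and lung these shares lie near the share of all genes called lower (given below), and in skin below it. No member was higher in these tissues, where 693 of 11797 genes were higher in brain and 593 in skin. In brain and skin the members' share of calls in either direction was therefore well below that of all genes. The 5 contrasts share the same libraries and are not independent of one another.

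**Figure D3:**
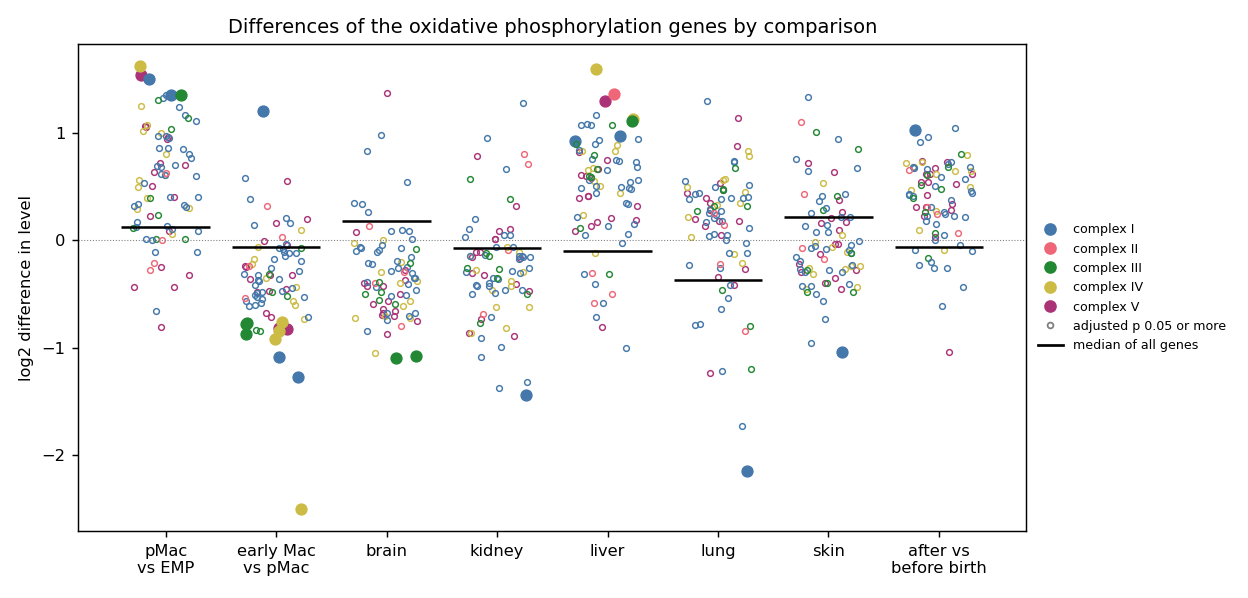
Log2 difference in level (vertical axis) of each oxidative phosphorylation gene in 8 comparisons (horizontal axis; a tissue name stands for late Mac of that tissue against the mean of the other 4); filled larger points have an adjusted p under 0.05, colours mark the 5 complexes and the black bar is the median of all genes tested. The members' median lies above that of all genes in pMac against EMP (0.60 and 0.13), in liver (0.56 and -0.10), in lung (0.23 and -0.37) and after birth (0.43 and -0.06), and below it in early Mac against pMac (-0.37 and -0.06), in brain (-0.38 and 0.18), in kidney (-0.27 and -0.07) and in skin (-0.07 and 0.22).

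Cox5a, a nuclear-encoded subunit of complex IV, showed the largest liver difference. In liver Mac its log2 level was 10.82 at E14.5, 11.39 and 11.20 at E18.5, 10.96 and 11.05 at P2, 12.30 and 11.78 at P8 and 12.67 and 12.03 at P21. The other tissues ranged from 7.71 to 10.499 in brain, 7.57 to 11.43 in kidney, 7.79 to 11.002 in skin and 8.97 to 12.20 in lung. Every liver library thus exceeded every brain library, and the ranges of kidney, skin and lung overlapped that of liver. The log2 difference was 1.60 ± 0.37 (adjusted p = 0.0026). It stayed called under all 8 alternatives (1.31 to 1.70) and without any 1 library. Cox5a lies on chromosome 9 (57521274 to 57532426, plus strand), and Gm26631 overlaps its exons on the opposite strand. The 250 bases before its start (chr9:57520982-57521231, plus strand, GRCm38.p6), shown because Cox5a had the largest liver difference of the members, contain none of the 3 motifs above.
Cox5a: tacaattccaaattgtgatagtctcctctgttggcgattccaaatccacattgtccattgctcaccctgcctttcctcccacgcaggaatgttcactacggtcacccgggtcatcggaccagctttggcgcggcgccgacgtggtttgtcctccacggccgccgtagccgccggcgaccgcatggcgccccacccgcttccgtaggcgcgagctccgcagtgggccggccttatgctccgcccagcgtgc

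Atp5o, the stalk subunit that confers oligomycin sensitivity, was at 12.43 in liver of E14.5, 12.07 and 12.20 at E18.5, 10.94 and 12.69 at P2, 12.84 and 13.09 at P8 and 12.40 and 13.12 at P21. In the other 39 libraries its lowest, median and highest levels were 8.58, 11.25 and 12.86. The ranges overlapped and the difference was 1.3 ± 0.33 (adjusted p = 0.0063). It too was called under all alternatives (0.90 to 1.38). Atp5o lies on chromosome 16 (91925214 to 91931687, minus strand) and is overlapped by annotated antisense genes.

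Sdhb, the iron-sulfur subunit of complex II, was at 11.15, 12.19 and 14.42 in liver and 6.52, 11.14 and 13.29 elsewhere, and rose by 1.37 ± 0.42 (adjusted p = 0.0284). Its partners in complex II did not pass the threshold: Sdha, the catalytic flavoprotein, differed by -0.59 ± 0.46 (adjusted p = 0.469), and the membrane anchors Sdhc and Sdhd by -0.50 (0.464) and -0.31 (0.789). The liver rises beyond these were Cox7b of complex IV (1.14, adjusted p = 0.0385), Uqcrb of complex III (1.11, 0.0393), and Ndufs8 (0.97, 0.0351) and Ndufa13 (0.93, 0.0452) of complex I, by limma with Benjamini-Hochberg adjustment. Sdhb and these 4 genes each lost their call under at least 3 of the alternatives, and that of Ndufa13 was also lost in 20 of 45 fits without 1 library. Ndufs8 carries iron-sulfur clusters and Ndufa13 is an accessory subunit.

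**Figure D4:**
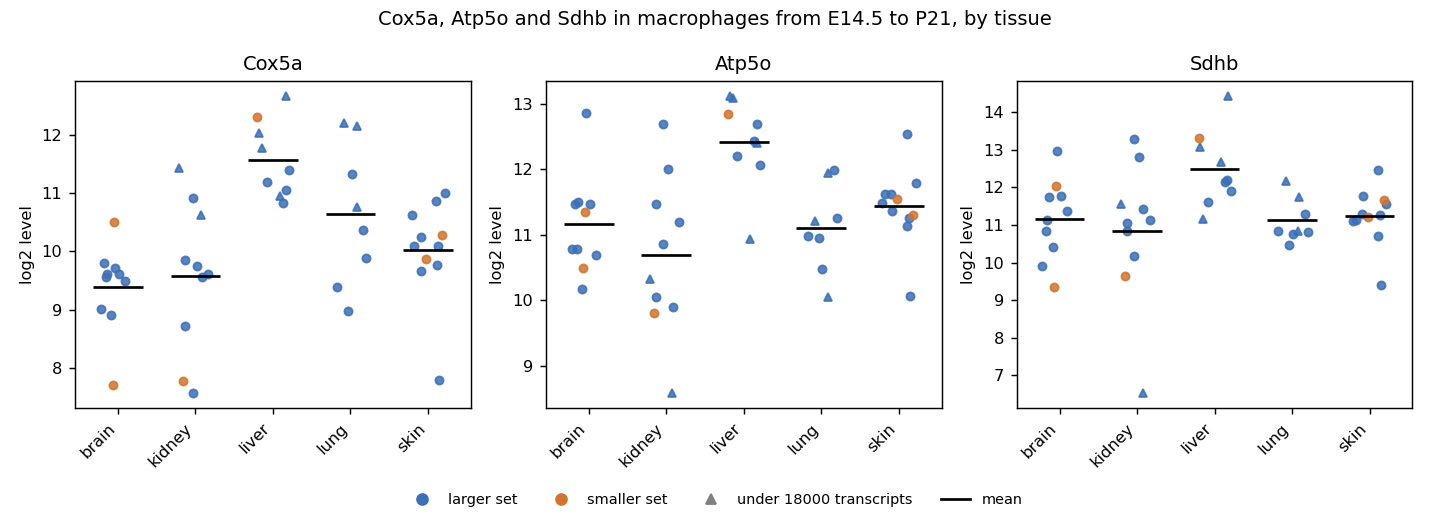
Log2 levels (vertical axes) of Cox5a, Atp5o and Sdhb in late Mac libraries (points) by tissue (horizontal axis); colours mark the sets of libraries, triangles the libraries with fewer than 18000 transcripts and bars the tissue means. Liver has the highest mean of each gene, and its range overlaps that of other tissues.

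The partner subunits in mitochondrial DNA rose in liver as well, in 11 of 13 cases (median 1.33), with the largest rises in mt-Nd2 (1.81 ± 0.37) and mt-Nd6 (1.78 ± 0.39) of complex I and mt-Co3 (1.61 ± 0.33) of complex IV. Of 17 citrate cycle genes, Mdh2 (1.03) rose and Dlst (-1.63) and Idh2 (-1.61) fell. In the same libraries all 8 hepatocyte markers were higher (mean level 8.41 to 14.68 in liver, 5.57 to 8.46 elsewhere), as were 9 of 11 tested erythroid markers (9.57 to 13.47 and 5.43 to 11.80) and 2 of 3 tested endothelial markers (6.61 to 9.11 and 5.37 to 10.17), and their part in the result was not tested. Without the 9 libraries with few detected transcripts, 3 members were called in liver and 1 of the 13 mitochondrially encoded genes (median 1.09), and within the larger set 2 and 9. Leaving out 1 library left 2 members called in liver without liver Mac of P8 replicate 1, and 3 without P2 replicate 1 or either replicate of P21.

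In brain Mac 2 of 80 members fell, both of complex III (8.71% of all genes called, 2.84% lower), and 66 of 80 differences were below 0, with a median of -0.38 against 0.18 over all genes. Uqcrb was at 5.78, 8.81 and 9.62 in brain (difference -1.07 ± 0.34, adjusted p = 0.0372), and the lowest value was that of P21 replicate 2. Without that library the difference was -0.73 and the adjusted p 0.187. Uqcrc1, a core protein of complex III, was at 10.07, 11.79 and 12.98 in brain and 8.45, 12.63 and 14.44 elsewhere (-1.1 ± 0.35, adjusted p = 0.0396). The ranges overlapped for both genes. With the set of libraries as a covariate 0 members were called, as without either P21 library or P2 replicate 1 of brain. In brain 4 of 5 tested neural markers were higher (mean 6.45 to 9.87, elsewhere 5.45 to 6.67) and 6 of 11 erythroid markers lower (5.67 to 8.48, elsewhere 5.43 to 13.47), and their part in the result was not tested.

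In kidney Mac Ndufs6, a zinc-binding subunit of complex I, was the 1 member called (3.1% of all genes called, 1.06% lower). It was at 5.75, 7.99 and 10.29 in kidney and 7.32, 9.16 and 11.08 elsewhere, with overlap, a fall of 1.44 on the log2 scale (SE 0.39, adjusted p = 0.0273). Its exons overlap those of Mrpl36 on the opposite strand, which fell by 1.60 in the same comparison. In skin Mac Ndufs8 was the 1 member called (8.23% of all genes called, 3.2% lower), at 8.39, 10.02 and 10.82 in skin and 9.21, 11.16 and 13.30 elsewhere (-1.04 ± 0.29, adjusted p = 0.0133). In skin 6 of the 13 mitochondrially encoded genes fell (median -0.86), led by mt-Nd2 (-1.79), mt-Nd6 (-1.38) and mt-Co3 (-1.13). All 6 tested keratinocyte markers were higher in skin (mean 5.37 to 13.88, elsewhere 5.37 to 6.95), and 5 of 10 macrophage markers were lower (8.15 to 13.87 and 9.37 to 14.91), and their part in the result was not tested. Within the larger set, 0 members were called in kidney and 0 in skin. The kidney call was also lost without either P2 library, either P8 library or E18.5 replicate 1 of kidney. The mean of the 4 measured kidney epithelium markers was 5.37 to 10.96 in kidney and 5.37 to 6.86 elsewhere, highest in P21 replicate 1, which also had the highest Ndufs6 level in kidney. Of these markers 1 passed the filter and it was not called, and their part in the result was not tested.

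In lung Mac the 1 member called (2.84% of all genes called, 1.92% lower) was Ndufs1, the largest iron-sulfur subunit of complex I, on chromosome 1 (63143596 to 63176833, minus strand). Its log2 level was 9.49 and 11.82 at E14.5, 9.54 and 9.15 at E18.5, 7.27 and 7.41 at P2, 6.10 at P8 and 6.90 at P21. The 40 libraries of the other tissues had a lowest, median and highest level of 8.33, 10.47 and 12.91. All 4 lung libraries after birth lay below every library of the other tissues, while those before birth lay inside their range. The difference was -2.16 ± 0.45 (adjusted p = 0.0032) and held without any 1 library. Over the members, 56 of 80 differences were above 0 in lung, with a median of 0.23 against -0.37 over all genes (-0.03 and -0.15 without the libraries with fewer than 18000 transcripts). Of the 4 low libraries 3 have fewer than 18000 transcripts above the floor. Without all libraries of that kind the difference was -1.02 and the adjusted p 0.693, and 0 members were called. The exons of Ndufs1 overlap those of Eef1b2 on the opposite strand. In lung 5 of 10 macrophage markers were lower (mean 9.37 to 13.62, elsewhere 8.15 to 14.91), and their part in the result was not tested.

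After birth (P8 and P21, 18 libraries) against before birth (E14.5 and E18.5, 19 libraries), with tissue as a covariate, 1 of 80 members rose, against 2.87% of all genes called and 1.34% higher. The member was Ndufa6, a complex I subunit, at 8.11, 9.06 and 9.78 before and 8.64, 9.77 and 12.96 after birth (1.03 ± 0.31, adjusted p = 0.0486). The ranges overlapped, and the call was lost in 34 of 45 fits that each left out 1 library. The difference was above 0 for 68 of 80 members (median 0.43 against -0.06 over all genes), and 21 had an unadjusted p under 0.05. Of the 13 mitochondrially encoded genes 6 rose, led by the complex IV genes mt-Co1 (1.19), mt-Co2 (1.12) and mt-Co3 (1.1). Without the libraries with few transcripts that count was 2, after quantile normalization it was 0, and with libraries shifted to 1 median it was 3. Ucp2, an uncoupling protein homologue, rose by 1.34. Keratinocyte markers rose in 3 of 6 tested cases (mean 5.37 to 8.83 before and 5.37 to 13.88 after birth), and their part in the result was not tested.

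The change from E14.5 and E18.5 to P8 and P21 is here called the change at birth, although P2 does not enter it. It differed between the tissues for 6 of 81 members (limma F test over 4 contrasts). Of all genes 9.13% were called, so the members' share was near the background. All 6 are of complexes I to III, which hold 38, 4 and 9 of the 81 members. Ndufa9 changed by 0.98 in brain, 1.51 in kidney, -1.60 in liver, -4.45 in lung and 0.31 in skin (adjusted p = 0.0284). Ndufa10, a complex I accessory subunit, changed by 0.18, 0.98, 1.0, -3.89 and 0.34 in the same order (adjusted p = 0.0134), and Cyc1 by 0.61, 1.36, -1.56, -2.76 and 0.60 (adjusted p = 0.0243). In each of these genes lung had the lowest value.

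Ndufs7, an iron-sulfur subunit of complex I, changed by 0.17, 1.73, -2.24, -1.66 and 0.70 (adjusted p = 0.0331). In Sdhc the change was 0.14, 0.97, -2.08, 2.16 and 0.66 (adjusted p = 0.0465), and in Uqcrq, a small subunit of complex III, -0.33, -0.18, 0.85, 2.90 and -0.04 (adjusted p = 0.0321). In this comparison, which leaves out P2, lung after birth is 1 library at P8 and 1 at P21, both with fewer than 18000 transcripts. Without the libraries of that kind 0 members were called, and without lung of E14.5 replicate 2 or E18.5 replicate 1, 3 were.

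The lung libraries themselves moved in both directions. At E14.5, E18.5 and P2 (2 libraries each), then P8 and P21 (1 each), Ndufa9 was at 11.19, 9.34, 9.39, 9.64, 9.25, 11.64, 5.44 and 5.44, nearly at the floor in the last 2. Ndufa10 was at 10.85, 11.99, 10.32, 11.09, 9.08, 11.46, 7.28 and 7.07. Over the same libraries Uqcrq was at 9.74, 9.57, 8.30, 9.71, 11.91, 11.15, 11.68 and 12.79. Thus Ndufa9 and Ndufa10 were lowest, and Uqcrq highest at P21, in libraries with few detected transcripts, and the P2 libraries did not share the low levels of Ndufa9. Ndufa5 and Ndufa6 are plotted with them because of their lung levels at P8 and P21, a choice made after the values were seen. Ndufa5 was at 6.31 to 7.64 before birth and 9.68 to 10.21 from P2, without overlap.

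**Figure D5:**
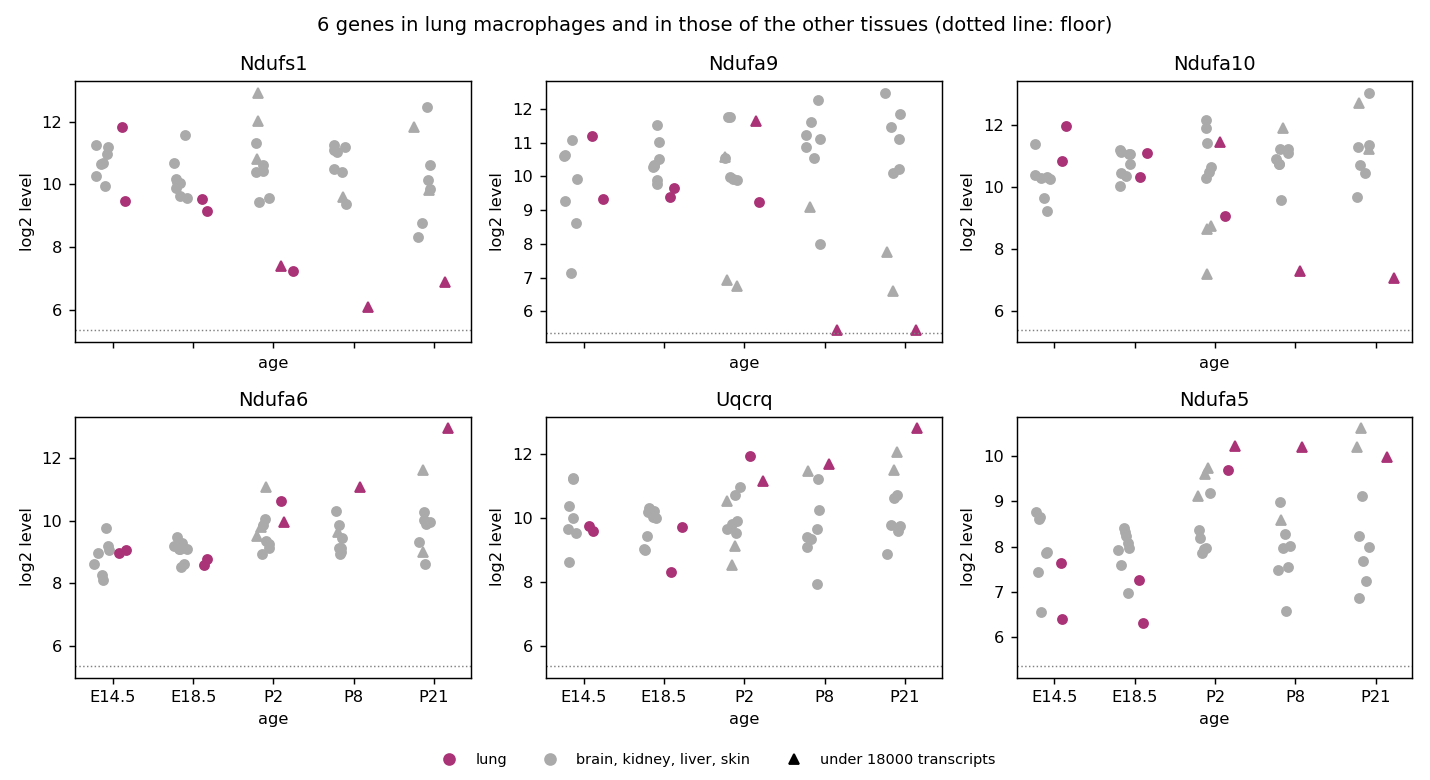
Log2 levels (vertical axes) of Ndufs1, Ndufa9, Ndufa10, Ndufa6, Uqcrq and Ndufa5 in late Mac by age (horizontal axis), in lung (purple) and in brain, kidney, liver and skin (grey); triangles mark libraries with fewer than 18000 transcripts above the floor, and the dotted line is the floor of 5.37. The P8 and P21 lung libraries lie at 5.44 for Ndufa9 and at 11.68 and 12.79 for Uqcrq.

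Brain and liver are the tissues with Mac both early (E10.25 and E10.5) and late (E14.5 and E18.5) in the embryo. In brain 0 of 81 members were called (11 with an unadjusted p under 0.05; 0.396% of all genes called), 77 of 81 differences were below 0 and the median was -0.71. In liver 0 were called (4 unadjusted; 1.24% of all genes called), with a median of 0.30. The median over all genes was 0.0 in brain, in liver and for the difference between them. The test of the difference between the tissues called 0 members (11 unadjusted, 0.637% of all genes called), while 78 of 81 members had a more positive difference in liver (median 0.99). Liver of E14.5 is 1 library, and the members are not independent of one another, so this count is not a test. Cox5a had the smallest p among the members, with a difference of 2.60 ± 0.79 between the tissues and an adjusted p of 0.174. These counts are by limma, no other tool was run, and tests on simulated data recovered few or none of the changed genes in these 3 comparisons.

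Over the 9 comparisons with calls, 51 of the 81 members were called in none, 26 in 1, and 4 in more: Atp5k and Cox7c in pMac and early Mac, Ndufs8 in liver and skin, and Uqcrb in pMac, early Mac, brain and liver. Of the 30 called members, 9 have exons that overlap those of another annotated gene. Besides those given above, Uqcrb overlaps Gm10767, Ndufa3 Tfpt, Ndufa13 Tssk6 and Ndufa9 1700018A23Rik, each on the opposite strand. Cox6a2, Cox6b2, Cox7a1, Cox7b2, Cox8b, Cox8c and Ndufa4l2, the forms typical of muscle, testis or hypoxia, were not among the 14181 genes. They could therefore not be analysed here.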

How the data were processed

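Bulk SMART-Seq2 libraries of polyA RNA (93, in 46 groups set from the labels) were analysed. The deposited values are log2 values, 1 for each transcript (Ensembl identifier) in each library per the file headers, and the base was inferred from their range (0.836 to 19.0). Bowtie 1.1.1, DESeq2 and mm10 are named without roles in the submitters' processing notes, and no source used here gives the normalization. The floor, 5.37, lies 0.5 above the highest band of lowest values found in any library. Of 37521 transcripts 36703 matched GENCODE symbols, and the parts above the floor were summed on the linear scale per gene, the floor added and log2 taken.

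Genes had to reach 6.37 in at least the number of libraries of the smallest group. The tests were by limma 3.58.1 (R 4.3.3, intensity trend, two-sided) over all genes, with Benjamini-Hochberg adjusted p-values and calls under 0.05. The procedure was tested on simulated data. It recovered few of the changed genes in the embryonic comparisons within brain or liver, and none where a change was to differ between tissues. Low counts there say little. In the other comparisons it recovered 28 to 64% of the genes changed by 1.5 on the log2 scale. Of those changed by 3 it recovered 85 to 99%. Smaller changes can thus be missed in every comparison. Tables were handled with Python 3.11.15 and pandas 2.3.3. Members and gene lists were chosen with earlier results of these data known. Named genes were core subunits, tissue forms of subunits, for each comparison the 5 called members with the largest change in each direction and a mean level of at least 7.37, the 3 steadiest and 3 most variable, members mostly at the floor, and the 3 largest calls of each pathway list in each direction; the remaining called members were named after their values were seen. Alternatives were the filter, the floor, 2 scalings between libraries, sets of libraries, libraries with few transcripts, a replicate block and leaving out each library. With no counts, no counting error can be given, and no library pair held identical values.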

Additional observations from a re-analysis of the deposited data

Results flagged for a closer look

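Single libraries stood apart in groups of 4. The gap from the highest or lowest library to the next exceeded the critical value of Dixon's test in 13 of 68 checks. Chance alone flags about 1 in 20 such groups, and the genes of 1 library are not independent of one another. Among pMac of brain at E9.5, replicate 4 was highest for the mean of the 81 genes (11.2755, the others 9.91 to 9.99), for the mean of complex I (11.0541, the others 9.41 to 9.51) and for Cox5b (10.9897), Cox6b1 (11.8988) and Cox8a (11.1031). Replicate 1 of that group was lowest for Cyc1 (10.0776, the others 11.52 to 11.78) and Cox4i2 (8.5893, the others 9.01 to 9.08). Among yolk sac Mac of E10.25, replicate 3 was highest for the mean of the 81 genes (11.2290, the others 9.82 to 10.01), for the mean of complex I (11.0933, the others 9.43 to 9.63) and for Cox4i1 (13.9685), Cox7a2l (12.6540) and Atp5g3 (11.6624). Replicate 4 of that group was lowest for Atp5b (12.2657, the others 13.81 to 14.10).

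The change from E14.5 and E18.5 to P8 and P21 differed between tissues by the limma F test for Cyc1 (adjusted p = 0.02429), Ndufa10 (0.01344), Ndufa9 (0.0284), Ndufs7 (0.03311), Sdhc (0.04651) and Uqcrq (0.03206). These are 6 of 81 members, a share near the 9.13% of all genes called. Both lung libraries of P8 and P21 have few detected transcripts, and 0 of these genes were called without such libraries.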

How the results depend on the processing

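Of 36 calls of a member in a comparison, 3 held under every alternative run (Cox4i2 in early Mac, Cox5a and Atp5o in liver) and 16 held without any 1 library, and none changed direction. The numbers of members called moved as follows, and the cause was not tested. In pMac against EMP 5 became 9 without the filter, 3 with the floor raised, 11 after quantile normalization, 3 with libraries shifted to 1 median, and 0 with the set as a covariate or within the smaller set. In early Mac 12 became 32, 34, 1 and 1 under quantile normalization, shift, set covariate and smaller set. Without the filter, brain gave 4 and lung 2. With the floor raised, lung gave 2 and the change after birth 0. Quantile normalization gave 4 in brain, 2 in kidney, 2 in liver, 2 in lung and 3 in skin. The shift gave 5 in kidney, 3 in liver, 2 in lung, 2 in skin and 0 after birth. Without the libraries with few transcripts liver gave 3, lung 0 and the change differing between tissues 0. The set covariate gave 0 in brain. Within the larger set brain, kidney, skin and the change after birth gave 0, liver 2 and the change differing between tissues 3. The fits within 1 set were chosen after seeing the data.

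Leaving out 1 library gave 2 to 11 members in pMac, 9 to 18 in early Mac, 0 to 4 in brain, 0 to 4 in kidney, 2 to 10 in liver (10 without kidney P21 replicate 1), 1 to 3 in lung, 1 to 2 in skin, 0 to 1 after birth, 3 to 8 for the change differing between tissues, and 0 in the embryonic comparisons. With the replicate block brain gave 1 and the change after birth 0. Same-numbered pairs from different groups had a median correlation of deviations of 0.0034, and 147 of 1436 exceeded 0.1. For pairs with other numbers the median was -0.0015, and 194 of 2162 exceeded 0.1. These pairs pool all ages, tissues and cell types, so they cannot tell whether some of the libraries are paired. The fits with pMac within the larger set, and the others within the smaller set, could not be fitted, and no library with few transcripts is in the fits with pMac.

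Without counts, depth sets no known limit. Levels at the floor understate differences, and neither sort gates nor the share of other cells are known.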
